A study of Homo sapiens with 4 samples.

Results

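A set of 8 genes was followed across enteric ganglioids, namely PRDM16, its divergent transcript PRDM16-DT, PRDM6, PRDM8, PRDM12, PRDM13, BNC1 and BNC2. They were chosen by symbol, as 8 of the 36601 genes in each deposited count table, and the choice drew on the PP121 comparison, in which PRDM16, PRDM6 and BNC2 had come out higher. PP121 values are therefore given below as a description with no test. Enteric ganglioids are suspension cultures of enteric neurons and their progenitors, here made from the human embryonic stem cell line H9, so all samples share 1 genetic background. The series held 4 samples profiled by single-nucleus RNA sequencing, with 2 untreated controls and 2 samples that received PP121, a kinase inhibitor, at 2 µM in the medium from day 15 to day 20. Each sample was a pool of ganglioids, and which samples share a differentiation is not given in the sources used here. The deposited annotation gave day 42 for replicate 1 and day 38 for replicate 2 of both groups, so replicate number and day cannot be told apart. Values for the samples are given in the order control replicate 1, control replicate 2, PP121 replicate 1 and PP121 replicate 2 unless stated otherwise.

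PRDM proteins combine a PR domain, a relative of the SET domain of histone methyltransferases, with zinc fingers that bind DNA, and most of them act by recruiting chromatin enzymes and corepressors. PRDM16 is best known from neural and blood stem cells and from brown fat, PRDM6 from smooth muscle, PRDM8 from cortical, retinal and spinal neurons, where it works with BHLHE22, PRDM12 from pain-sensing neurons and PRDM13 from inhibitory neurons of the dorsal spinal cord and the retina. BNC1 and BNC2, the basonuclins, are zinc finger proteins of the surface epithelia and germ line and, for BNC2, of connective tissue. In the gut wall, enteric neurons arise from neural crest progenitors and divide by transmitter, among which the neurons that make nitric oxide (NO) and the cholinergic neurons are the main motor classes.

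In GENCODE release 29 on GRCh38, PRDM16 lies at chr1:3069168-3438621 on the plus strand, and RefSeq places PRDM16-DT, a long noncoding RNA, at chr1:3059617-3067725, 1443 bases before the PRDM16 start. PRDM6 lies at chr5:123089121-123194266, PRDM8 at chr4:80183879-80204329, PRDM12 at chr9:130664594-130682981 and PRDM13 at chr6:99606730-99615578, all on the plus strand. BNC1 lies at chr15:83255903-83284714 and BNC2 at chr9:16409503-16870843, both on the minus strand. Promoters, from 250 bases before to 50 bases after a RefSeq start on GRCh38.p14, were found for 6 of the 8 members, and PRDM16 and PRDM6 had no entry. PRDM16-DT was found in the same nuclei as PRDM16, and BNC2 was high in the mesenchymal class. PRDM13 was highest in 1 neuron subtype in each treatment. The promoters of these members are therefore shown. They are written 5′ to 3′ on the strand of the gene, at chr1:3067676-3067975 (minus), chr6:99606583-99606882 (plus) and chr9:16870621-16870920 (minus), and capitals mark GGGCGG or its reverse complement CCGCCC, the core of a GC box.
PRDM16-DT: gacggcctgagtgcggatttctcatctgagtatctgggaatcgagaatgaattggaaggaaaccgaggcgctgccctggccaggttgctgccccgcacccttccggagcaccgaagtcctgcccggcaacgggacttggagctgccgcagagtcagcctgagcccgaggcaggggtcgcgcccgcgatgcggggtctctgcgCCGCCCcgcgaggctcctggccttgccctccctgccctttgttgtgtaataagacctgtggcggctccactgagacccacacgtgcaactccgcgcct
PRDM13: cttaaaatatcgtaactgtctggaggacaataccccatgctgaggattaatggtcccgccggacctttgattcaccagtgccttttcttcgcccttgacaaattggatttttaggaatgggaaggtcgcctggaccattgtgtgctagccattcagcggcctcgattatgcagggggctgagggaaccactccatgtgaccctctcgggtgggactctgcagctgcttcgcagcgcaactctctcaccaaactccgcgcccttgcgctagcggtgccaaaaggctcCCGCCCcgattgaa
BNC2: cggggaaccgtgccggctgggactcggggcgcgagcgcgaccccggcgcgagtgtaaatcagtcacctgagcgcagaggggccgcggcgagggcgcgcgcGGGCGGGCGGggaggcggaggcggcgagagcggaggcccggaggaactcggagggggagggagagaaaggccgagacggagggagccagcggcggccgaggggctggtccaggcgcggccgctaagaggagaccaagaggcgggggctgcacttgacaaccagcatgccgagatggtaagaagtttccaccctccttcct
The GC box core was found in 1 copy at PRDM16-DT, in 1 copy at PRDM13 and in 2 overlapping copies at BNC2, and 45.0% of the 35116 RefSeq promoters of this length held it on either strand. CCAAT was present at PRDM16-DT and PRDM13 and absent at BNC2 (34.6% of all promoters), and CANNTG, the E-box, occurred in 2 copies in each of these 3 promoters (68.7% of all promoters). TATAAA was not found in any of the members' promoters, against 11.5% of all promoters. The BNC2 promoter held 37 CG pairs, a number that 11.3% of promoters reached, whereas PRDM16-DT held 25 (32.0%) and PRDM13 held 16 (47.5%), and the median promoter held 14.

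The 4 samples gave 2912 to 4587 nuclei with a deposited class, with 23348045 to 34123759 unique molecular identifier (UMI) counts in total and medians of 6289 to 7071 per nucleus. Levels are given in CPM, the counts of a gene scaled to a common total of all UMIs of a class or identity in a sample. CPM are not corrected for gene length, so levels are compared between samples and nuclei for 1 gene and never between genes. The sample name written in the deposited annotation of each control went against its label, since the first named a stage 1 control replicate 2 and the second a stage 2 control replicate 1, against stage 1 in both labels. Groups were taken from the labels, and every result below that compares treatments or replicates of controls rests on them. Of the 14812 annotated nuclei, 20 carried a barcode that occurred in another library. The mesenchymal class held 40, 408, 33 and 422 nuclei, that is 0.934%, 13.5%, 0.719% and 14.5% of annotated nuclei, so both replicate 2 samples stood apart. Its markers, all 12 of 12 detected, summed to 3388 to 3770 CPM in it. In neurons the same markers summed to 17.4, 53.6, 14.3 and 62.4 CPM, again higher in replicate 2, and whether RNA from mesenchymal cells reached other nuclei was not tested. Neuronal markers summed to 1085 to 1429 CPM in the enteric neuron class, with TLX2 at 0 in both replicate 2 samples. The class named epithelial, of 9 to 37 nuclei, had epithelial markers at 61.9 to 104 CPM against 23.6 to 210.2 CPM in mesenchymal nuclei and was therefore not set apart by them. The class left unknown by the annotation, of 60 to 211 nuclei, had the highest progenitor and glial markers (581 to 865 CPM) and motile cilia markers of 108, 124, 667 and 1148 CPM.

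PRDM16 was a gene of the progenitor 2 and unknown classes. In progenitor 2 nuclei PRDM16 stood at 82.5, 97.7, 154 and 117 CPM, and 36.0% (95% Clopper-Pearson interval 33.2 to 38.9%), 40.1% (36.4 to 43.9%), 52.9% (49.95 to 55.9%) and 42.5% (39.1 to 45.9%) of nuclei held a UMI, with intervals that cover counting error only. Mesenchymal nuclei, set beside them as a class with little PRDM16 and with the higher median depth (7227 to 8401 against 6242 to 6706 UMIs), held a UMI in 2.50%, 5.39%, 0% and 7.11% of nuclei. In the unknown class PRDM16 stood at 65.2, 82.9, 152 and 252 CPM. Progenitor 1 nuclei had 20.5, 38.9, 43.2 and 41.4 CPM and neurons 5.96, 9.29, 14.2 and 22.0 CPM. In every sample the progenitor 2 and unknown classes were thus above progenitor 1, and progenitor 1 above neurons, while both PP121 samples were above both controls in progenitor 2, progenitor 1, the unknown class and neurons. Neuronal nuclei with a PRDM16 UMI were deeper than those without (medians of 10892 to 12339 against 6990.5 to 7715 UMIs) and had neuroepithelial markers at 375 to 504 CPM against 231 to 372 CPM, and the part of either in the PRDM16 signal of neurons was not tested.

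PRDM16-DT, the long noncoding RNA transcribed away from PRDM16, was sparse, with 21, 18, 58 and 78 UMIs in all annotated nuclei. Progenitor 2 nuclei held 15, 13, 39 and 21 of them, at 1.68, 2.41, 4.92 and 3.24 CPM. The unknown class had 1.16, 3.60, 3.83 and 35.4 CPM, and the last value came from 46 UMIs in 24 nuclei of PP121 replicate 2, where no other sample came near it. No UMI was seen in the mesenchymal or epithelial classes. Of the 147 nuclei with PRDM16-DT, 96 (65.3%) also held PRDM16, whereas 18.4% of nuclei without PRDM16-DT did. Read from the other side, these 96 were 3.44% of the 2788 nuclei with PRDM16. In the unknown class, 31 of 34 nuclei with PRDM16-DT (91.2%) held PRDM16, against 40.1% of the rest. These are counts of nuclei that share libraries and depth, and since it was not stated whether reads were counted by strand, reads of a gene and of RNA antisense to it cannot be told apart.

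PRDM13, PRDM8 and PRDM12, the members tied to spinal and sensory neurons elsewhere, were low but present. PRDM13 was highest in progenitor 2 nuclei, at 22.0, 15.7, 19.6 and 9.73 CPM, with 8.34, 7.78, 9.68 and 7.88 CPM in progenitor 1 and 4.91, 6.85, 7.55 and 4.68 CPM in neurons. The order of the 3 classes was the same in all samples and their values did not overlap, although the gaps between neighbours were narrow. PRDM8 was higher in neurons than in either progenitor class in every sample, at 4.43, 12.2, 4.04 and 13.1 CPM. Progenitor 2 had 2.91, 8.33, 2.27 and 7.26 CPM and progenitor 1 had 0.758, 3.26, 1.28 and 10.5 CPM, with the order of the progenitor classes turned in PP121 replicate 2. Both replicate 2 samples were above both replicate 1 samples in each of these classes. PRDM12 was close to the limit of detection in neurons, with 11, 20, 7 and 24 UMIs (0.580, 1.80, 0.416 and 2.74 CPM), and reached 5.10 CPM in progenitor 2 of PP121 replicate 2 against 0.505 to 1.11 CPM in the other samples. Again the replicate 2 samples were the higher ones. For PRDM8 and PRDM12 nothing is read from that order, since its share of all genes was not computed.

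BNC2 was found mostly outside neurons and progenitors, and BNC1 had no class of its own. Mesenchymal BNC2 stood at 171, 658, 178 and 745 CPM. A BNC2 UMI was found in 42.5% (27.0 to 59.1%), 75.5% (71.0 to 79.6%), 63.6% (45.1 to 79.6%) and 84.4% (80.5 to 87.7%) of mesenchymal nuclei, against 1.39%, 2.40%, 1.48% and 4.20% of neurons of like depth. In the unknown class BNC2 reached 295, 159, 203 and 220 CPM, and in neurons 2.48, 6.13, 3.51 and 15.2 CPM. Mesenchymal nuclei were above unknown nuclei only in the replicate 2 samples, so the order of these 2 classes turned with the replicate. The class named epithelial had 199, 20.3, 46.4 and 43.5 CPM, from 40, 4, 3 and 13 UMIs, and was above mesenchymal nuclei in control replicate 1. In neurons the replicate 2 samples were above the replicate 1 samples, as the mesenchymal markers were, and neurons with a BNC2 UMI had mesenchymal markers at 15.1, 82.5, 16.3 and 124 CPM against 17.5, 52.5, 14.2 and 59.5 CPM in those without, higher in both replicate 2 samples and near equal in replicate 1, with the part of that in the BNC2 level not tested. BNC1 stood at 2.90, 3.16, 5.17 and 4.34 CPM in neurons and at 11.2, 6.36, 10.1 and 2.59 CPM in mesenchymal nuclei, the last from 4, 23, 3 and 9 UMIs, so its levels in the 2 classes overlapped.

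PRDM6, known as a repressor in smooth muscle, was found in neurons and mesenchymal nuclei. Neuronal PRDM6 stood at 1.11, 1.98, 6.71 and 19.2 CPM, from 21, 22, 113 and 168 UMIs in only 14, 7, 19 and 31 nuclei. In mesenchymal nuclei it stood at 2.80, 8.84, 0 and 38.6 CPM, from 1, 32, 0 and 134 UMIs, and the 0 of PP121 replicate 1 allows up to 10.1 CPM (3 UMIs). The replicate 2 samples were thus above the replicate 1 values, with PP121 replicate 1 limited by its 33 nuclei. Smooth muscle markers in the same mesenchymal nuclei summed to 33.6, 120, 104 and 93.3 CPM against 42.7 to 48.9 CPM in neurons. Progenitor 2 nuclei had 0.336, 1.11, 2.90 and 1.70 CPM of PRDM6.

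**Figure D1:**
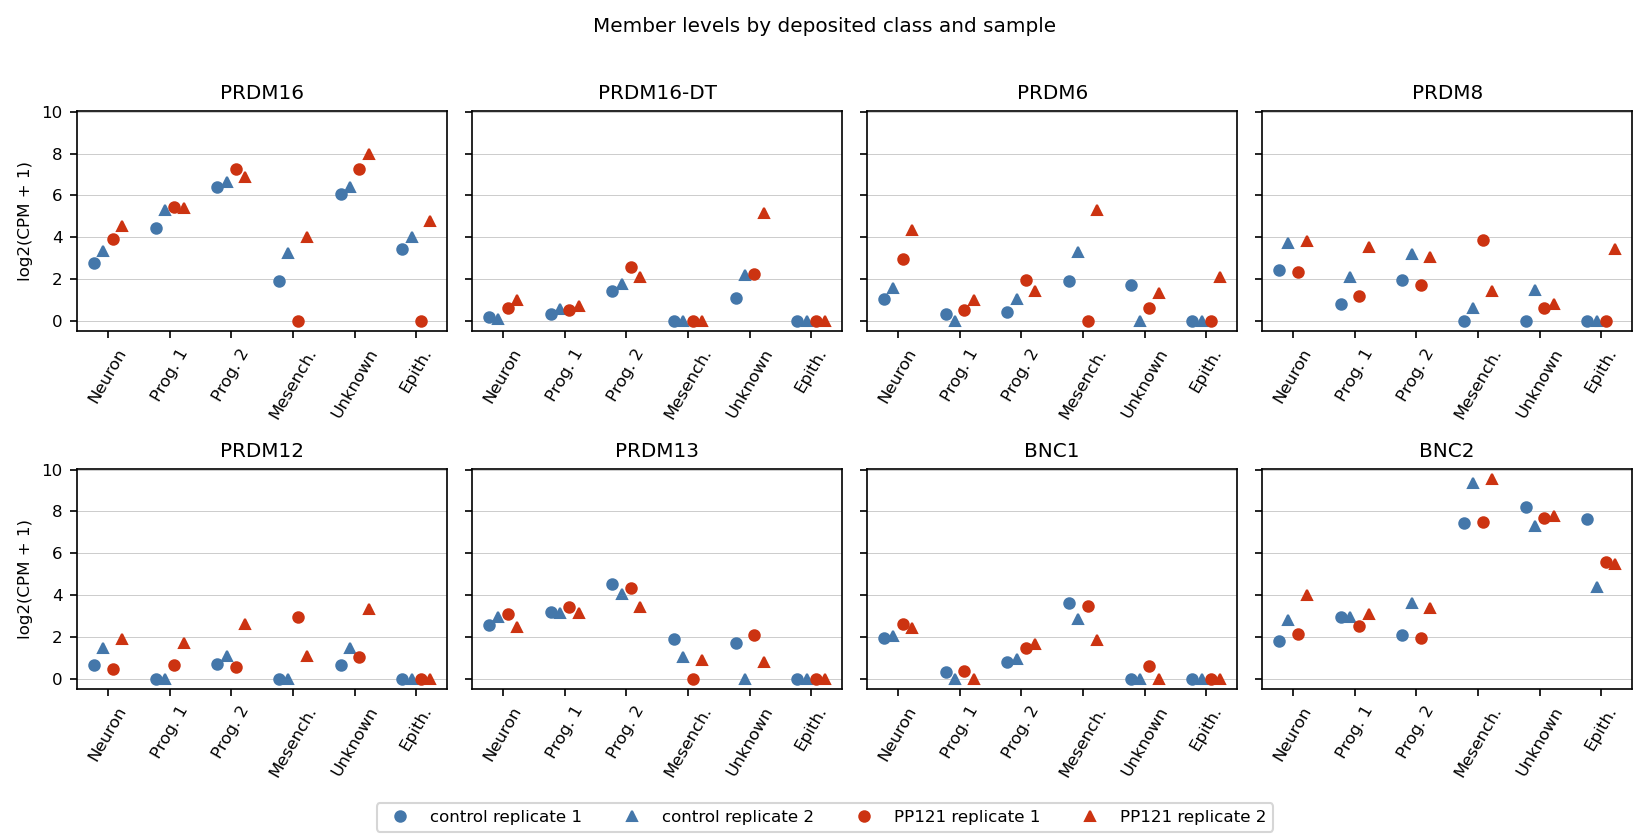
Level of each member by deposited class, as log2(CPM + 1) on the vertical axis, with 1 point per sample and no error bar since each point is a sum over the nuclei of 1 sample. PRDM16 was highest in the progenitor 2 and unknown classes, and BNC2 reached 658 and 745 CPM in the mesenchymal nuclei of replicate 2.

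Within neurons, the deposited tables give control neurons 8 subtypes (EN 1 to EN 8), from a clustering of controls alone, and PP121 neurons 9 (EN A to EN I), which the study made from control and PP121 neurons merged. The labels of the merged clustering for control neurons were not used here, so subtypes are not matched between treatments. In PP121 neurons PRDM6 sat almost wholly in 1 subtype. EN I, of 43 and 77 nuclei in PP121 replicates 1 and 2, held 98 and 153 PRDM6 UMIs, which were 86.7% and 91.1% of those of all neurons in these samples. Its PRDM6 level was 286 and 216 CPM, and no other PP121 subtype of at least 20 nuclei exceeded 5.06 CPM. Within EN I, the UMIs came from 12 and 21 nuclei, with up to 24 and 31 in a single nucleus. EN I had enteric neuron markers at 1736 and 1642 CPM, and no NOS1 UMI, which allows up to 8.75 and 4.24 CPM. In the controls EN 4 had the highest PRDM6 level of the subtypes with at least 20 nuclei, at 3.42 and 9.86 CPM, from 5 of 21 UMIs in 2 nuclei and 18 of 22 UMIs in 4 nuclei, while EN 2 and EN 3 of control replicate 1 held 6 UMIs each.

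PRDM13 was highest in 1 subtype in each treatment, but was less confined to it than PRDM6 was to EN I. EN 6 had 37.8 and 30.6 CPM of PRDM13 in control replicates 1 and 2, and EN F had 61.6 and 15.8 CPM in PP121 replicates 1 and 2, so that these subtypes held 45.2%, 64.5%, 48.8% and 68.3% of the neuronal PRDM13 UMIs. Elsewhere, no subtype of at least 20 nuclei was above 9.44 CPM. PRDM8 was also highest there, at 14.4 and 33.1 CPM in EN 6 and 14.9 and 32.1 CPM in EN F, followed by EN 2 (11.1 and 27.1 CPM) in the controls. Neuroepithelial markers in the same subtypes summed to 1075, 829, 1329 and 866 CPM against 241 to 389 CPM in all neurons. PRDM8 and PRDM13 met in 29 neurons, 10.2% of the 285 neurons with PRDM8. Of all neurons, 76 of 2301, 55 of 1250, 96 of 2030 and 28 of 976 held PRDM13. PRDM16 stood at 22.5 and 18.7 CPM in EN 6 and at 31.8 and 25.9 CPM in EN F, and reached 86.2 CPM in EN E of PP121 replicate 2, a group of 29 nuclei. Neurons without a subtype (16, 16, 143 and 61 nuclei) had PRDM16 at 71.6, 19.9, 50.5 and 38.4 CPM and cycling markers at 1635, 3359, 273 and 507 CPM. As the subtypes were clustered on the expression of these nuclei, none of this was tested.

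**Figure D2:**
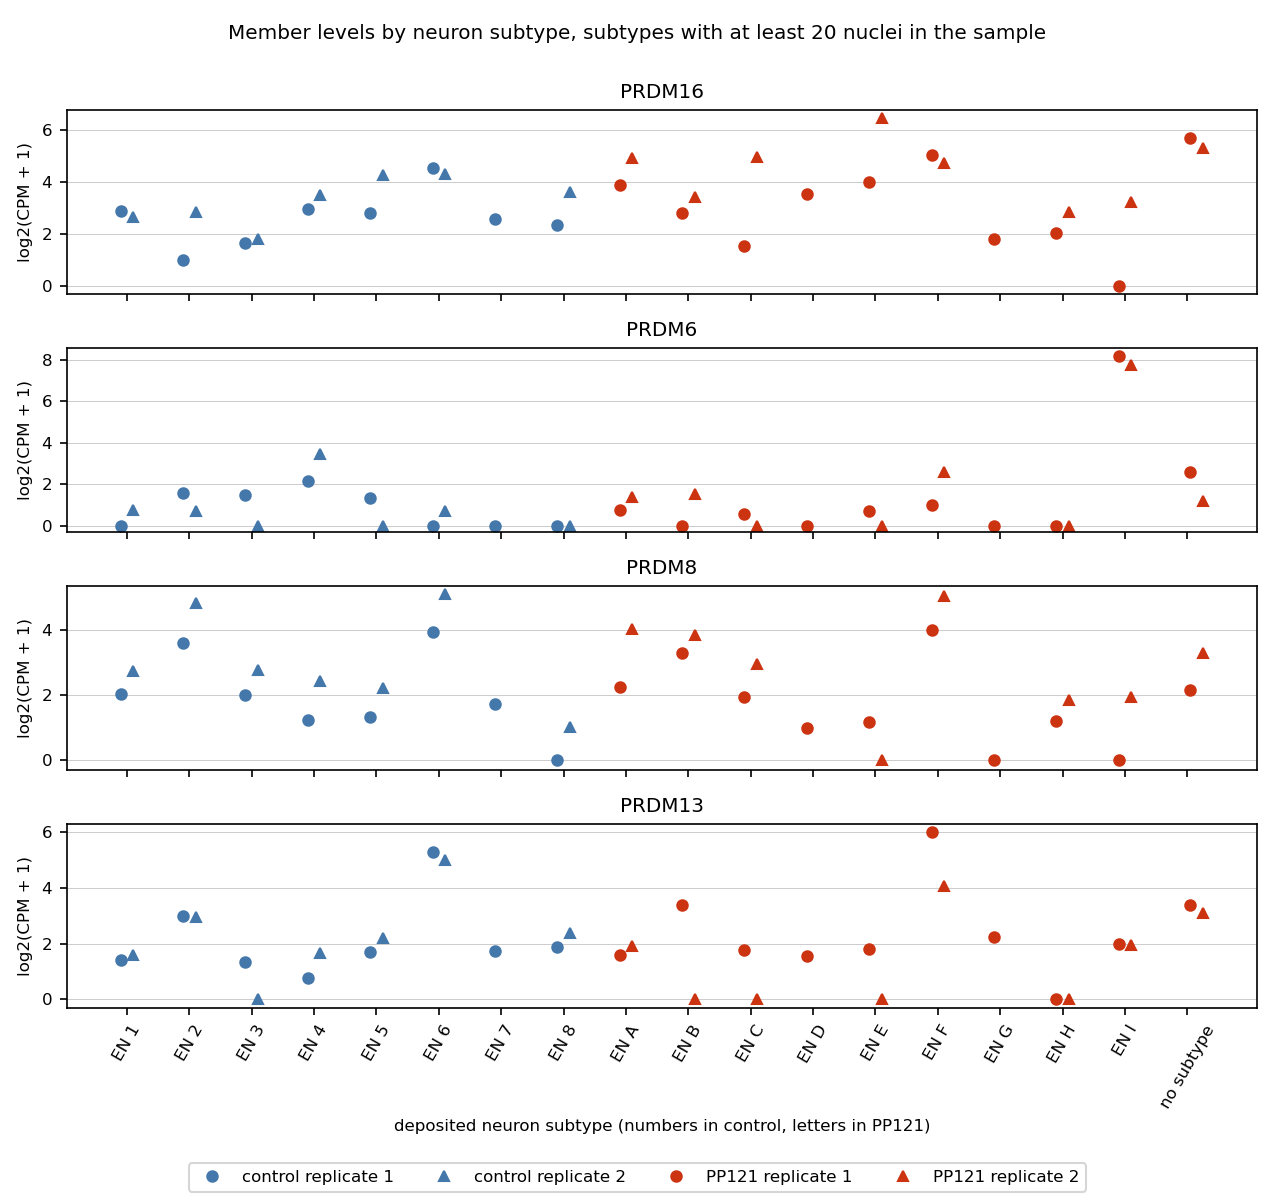
Level of PRDM16, PRDM6, PRDM8 and PRDM13 in the neuron subtypes with at least 20 nuclei, as log2(CPM + 1) on the vertical axis, with 1 point per sample. PRDM6 stood at 286 and 216 CPM in EN I of the PP121 samples, and PRDM13 was highest in EN 6 of the controls and EN F of the PP121 samples.

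PRDM6 and BNC2, both found in mesenchymal nuclei, met in 54 nuclei, 32.0% of the 169 with PRDM6 and 4.11% of the 1313 with BNC2. In neurons they met in 1 of the 71 nuclei with PRDM6. BNC2 was held by 32 of 2301, 30 of 1250, 30 of 2030 and 41 of 976 neurons in all. At such low shares nothing is read from the 1 nucleus. The part of the mesenchymal class, where BNC2 was common, in the 54 shared nuclei was not tested. PRDM16 and BNC2, both high in the unknown class, met in 148 of its 568 nuclei, which were 60.4% of those with PRDM16 and 50.7% of those with BNC2. Over this whole class, 94 of 176, 23 of 60, 110 of 211 and 65 of 121 nuclei held BNC2. These were deeper than the rest (medians of 9074.5 to 10690 against 6401 to 7537.5 UMIs), and the part of depth was not tested. PRDM16 and PRDM13 met in 236 nuclei, 29% of the 813 with PRDM13, whereas 18.2% of nuclei without PRDM13 held PRDM16.

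Neurons that make NO were compared with all other enteric neurons to ask which members vary with transmitter. The authors called this identity from NOS1, the neuronal nitric oxide synthase, and a score of NO genes, none a member, but on imputed values that draw on all genes of a nucleus. NO neurons numbered 449, 230, 358 and 91, and only 9.13%, 10.4%, 9.22% and 18.7% of them held a NOS1 UMI. The edgeR quasi-likelihood test, two-sided, with the sample as a block and Benjamini-Hochberg adjustment over all genes tested, called 12.5% of 19193 genes, and 3 of the 7 members tested were called, while PRDM16-DT with 22 UMIs was not tested.

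PRDM8 was lower in NO neurons. It stood at 1.61, 3.05, 1.62 and 0 CPM there, from 6, 6, 5 and 0 UMIs with a limit of 3.48 CPM for the 0, against 5.12, 14.2, 4.59 and 14.6 CPM in the other neurons. All 4 NO values were below all 4 others. The log2 fold change was -2.07 ± 0.37 (SE; adjusted p = 0.0021 by edgeR's quasi-likelihood test). Without the block, the adjusted p was 0.055, leaving out each sample in turn kept the call (-2.31 to -1.79), and with neurons defined by at least 1 NOS1 UMI it was lost (-2.54, adjusted p = 0.22).

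PRDM13 was lower in NO neurons by a test that barely passed. Its levels were 1.88, 6.60, 2.26 and 0 CPM in NO neurons against 5.65, 6.91, 8.73 and 5.19 CPM in the others. NO values were below the others within every sample, although the NO value of control replicate 2 was close to its own pair and above 2 of the other values. PRDM13 changed by -1.23 ± 0.38 (adjusted p = 0.049 by edgeR's quasi-likelihood test), a call lost without control replicate 1 (-1.12, adjusted p = 0.18), without PP121 replicate 1 (-0.99, adjusted p = 0.29) with DESeq2 (adjusted p = 0.066), without the sample block (adjusted p = 0.21), without neurons that have no subtype (adjusted p = 0.053) and without EN I (adjusted p = 0.057). Neurons called by at least 1 NOS1 UMI had a log2 fold change of 0.83 (adjusted p = 0.85).

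PRDM6 was higher in NO neurons, and in the PP121 samples the difference lay in EN I. The NO neurons held 1.35, 6.09, 22.6 and 67.3 CPM against 1.05, 1.10, 3.13 and 13.9 CPM in the others, from 5, 12, 70 and 58 UMIs in 2, 2, 8 and 8 nuclei. The NO value was above its pair in every sample, little so in control replicate 1. The log2 fold change was 2.36 ± 0.30 (adjusted p = 0.00013 by edgeR's quasi-likelihood test). EN I nuclei of NO identity, 11 and 14 in the PP121 samples, carried 69 and 58 of the PRDM6 UMIs. All other PP121 NO neurons carried 1 and 0. Control neurons carry no EN I label, so the excess in control replicate 2 was not located this way. The call was lost without the sample block (2.22, adjusted p = 0.31). EN I was left out because it holds these UMIs, which fixes the outcome in the PP121 samples. The log2 fold change was then 0.64 (adjusted p = 0.60 by edgeR's quasi-likelihood test). For neurons with at least 1 NOS1 UMI it was -1.46 (adjusted p = 0.81 by the same test). Since no EN I nucleus held NOS1, the EN I nuclei of NO identity had been given it without a NOS1 UMI.

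BNC2 in NO neurons stood at 2.15, 3.05, 7.76 and 48.8 CPM against 2.56, 6.80, 2.55 and 11.5 CPM, so the control pairs went down and the PP121 pairs went up. Over all samples its log2 fold change was 0.98 ± 0.42 (adjusted p = 0.16). PRDM16 (0.33 ± 0.19, adjusted p = 0.33), BNC1 (0.68 ± 0.37, adjusted p = 0.29) and PRDM12 (-1.74 ± 0.82, adjusted p = 0.20) also missed the threshold of edgeR's quasi-likelihood test.

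Cholinergic neurons, 768, 252, 627 and 93 by the deposited call, were low in 3 members. Of 19699 genes 12.9% were called, and of the 7 members tested PRDM16, PRDM13 and BNC2 were called. CHAT, which makes acetylcholine, stood at 48.0 to 70.7 CPM in them against 1.01 to 5.07 CPM in the others. SLC18A3, the vesicular acetylcholine transporter, was sparse but also higher in each sample, at 1.725 to 5.03 against 0.126 to 0.510 CPM. SLC5A7, the choline transporter, stood at 3.79, 47.4, 2.965 and 12.6 CPM against 4.52, 13.0, 7.98 and 12.8 CPM. It was thus higher in cholinergic neurons of control replicate 2 alone. In NO neurons SLC5A7 stood at 17.75, 35.5, 20.7 and 45.3 CPM. How the study scored cholinergic identity is not given in the sources used here.

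PRDM13 had the largest change of the 3 members called. Cholinergic neurons held 1.42, 0.431, 2.37 and 0 CPM, from 9, 1, 12 and 0 UMIs, against 6.66, 8.55, 9.77 and 5.15 CPM in the others. All 4 cholinergic values were below all 4 others. The log2 fold change was -2.35 ± 0.33 (adjusted p = 0.00035 by edgeR's quasi-likelihood test), and it was called under every alternative run and without any 1 sample (-2.70 to -2.11). PRDM16 stood at 3.00, 5.61, 2.77 and 15.1 CPM against 7.45, 10.3, 19.1 and 22.7 CPM, lower within each sample with the widest gap in PP121 replicate 1. It changed by -1.46 ± 0.28 (adjusted p = 0.0039), and by -0.89 (adjusted p = 0.051) without PP121 replicate 1. BNC2 stood at 0.473, 5.17, 0.593 and 2.51 CPM, from 3, 12, 3 and 2 UMIs, against 3.49, 6.39, 4.76 and 16.5 CPM. It was lower within each sample, least in control replicate 2, and changed by -1.78 ± 0.41 (adjusted p = 0.011), or by -1.47 (adjusted p = 0.075) without PP121 replicate 1. Without the sample block, PRDM16 and BNC2 were not called (adjusted p = 0.14 and 0.18 by edgeR's quasi-likelihood test). Cycling markers were lower in cholinergic neurons for 5 of 5 genes and in NO neurons for 4 of 5. Neuroepithelial markers were lower in cholinergic neurons for 2 of 7 (PAX3 and PAX6, list median -1.36), as were progenitor and glial markers for 3 of 9 (EDNRB, FOXD3 and SOX2, list median -0.35), and their part in these results was not tested.

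PRDM6 stood at 1.58, 0.431, 8.89 and 44.0 CPM in cholinergic neurons against 0.872, 2.40, 5.78 and 16.7 CPM in the others, higher in all samples but control replicate 2. Its log2 fold change of 0.82 ± 0.31 missed the threshold (adjusted p = 0.11 by edgeR's quasi-likelihood test) and turned to -0.70 (adjusted p = 0.54) without EN I. BNC1 (0.83 ± 0.32, adjusted p = 0.12), PRDM8 (-0.48 ± 0.26, adjusted p = 0.26) and PRDM12 (-0.63 ± 0.76, adjusted p = 0.66) were not called either. By the deposited glutamatergic call, PRDM8 stood at 8.44, 18.0, 5.43 and 15.3 CPM against 3.01, 6.44, 3.29 and 9.08 CPM in the other neurons, higher in each sample, and no test was planned for it.

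**Figure D3:**
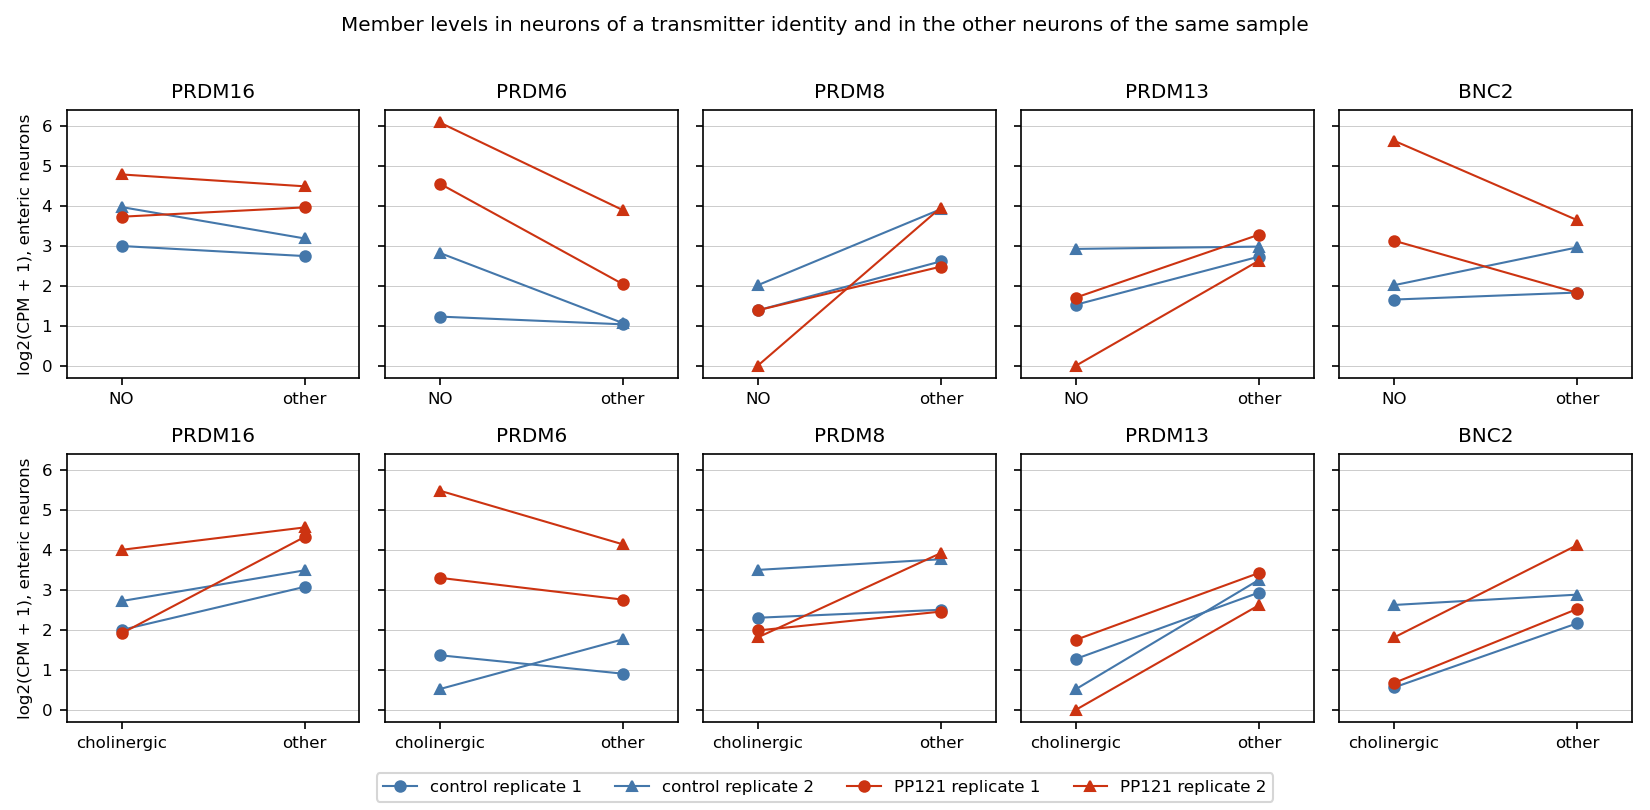
Level of 5 members by transmitter identity, as log2(CPM + 1) on the vertical axis, with the identity and all other neurons of each sample joined by a line. The upper row shows NO neurons and the lower row cholinergic neurons, and PRDM13 was lower in the cholinergic neurons of all 4 samples, at 0 to 2.37 CPM.

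PRDM16, a progenitor gene here, was compared between cycling progenitors (deposited phase S or G2M) and progenitors in G1. Each sum pools progenitor 1 and 2, and no term for class was fitted. Progenitor 2 had the higher PRDM16 level and the higher cycling markers (284 to 440 against 80.8 to 206 CPM), and the part of this mix was not tested. The test called 19.5% of 18843 genes, and PRDM16 was the 1 member called of 6 tested, PRDM6 and BNC1 being too sparse. Cycling progenitors held 59.2, 64.8, 94.5 and 82.8 CPM against 68.9, 84.2, 114 and 110 CPM in G1. PRDM16 was lower in cycling progenitors within every sample, although the 2 sets of values overlapped across treatments. The log2 fold change was small, at -0.33 ± 0.07 (adjusted p = 0.0018 by edgeR's quasi-likelihood test), and ranged from -0.36 to -0.30 without each sample in turn. Without the sample block it was not called (-0.34, adjusted p = 0.51). PRDM13 changed by -0.35 ± 0.14 (adjusted p = 0.085) and was lower in cycling progenitors of all 4 samples, at 16.5, 12.1, 13.1 and 7.69 CPM against 19.6, 12.8, 18.0 and 11.6 CPM. BNC2 (0.43 ± 0.21, adjusted p = 0.16), PRDM8 (-0.32 ± 0.24, adjusted p = 0.41), PRDM12 (0.06 ± 0.61, adjusted p = 0.96) and PRDM16-DT (-0.01 ± 0.35, adjusted p = 0.99) missed the threshold.

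Replicate 1 (day 42) and replicate 2 (day 38) were compared with treatment as a term. In neurons 5 of the 7 members tested were called, against 9.49% of 21243 genes. Neuronal PRDM8 stood at 4.43 and 4.04 CPM in replicate 1 and 12.2 and 13.1 CPM in replicate 2, with no overlap and nearly the same value in control and PP121. The log2 fold change, replicate 1 minus replicate 2, was -1.63 ± 0.21 (adjusted p = 3.5e-06 by edgeR's quasi-likelihood test). PRDM12 gave 0.580 and 0.416 CPM against 1.80 and 2.74 CPM, and changed by -2.19 ± 0.46 (adjusted p = 0.0018 by edgeR's quasi-likelihood test). It passed the filter on low counts only through replicate 2, so nothing is read from its call, which is 1 of the 5. BNC2 gave 2.48 and 3.51 CPM against 6.13 and 15.2 CPM, and changed by -1.81 ± 0.25 (adjusted p = 9.2e-06). For these 3 members both replicate 1 samples were below both replicate 2 samples. The share of all genes with that order was not computed, so nothing is read from this count.

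PRDM16 (-0.70 ± 0.17, adjusted p = 0.0087) and PRDM6 (-1.39 ± 0.25, adjusted p = 0.00036) were also called, but their replicates overlapped across treatments, since replicate 1 of PP121 was above replicate 2 of the control. Both lost the call with DESeq2 (adjusted p = 0.29 and 0.065) and in each fit with 1 sample left out, and both turned sign without PP121 replicate 2 (0.08 and 0.93). PRDM6 also lost it without EN I (-0.98, adjusted p = 0.17). PRDM13 (0.01 ± 0.26, adjusted p = 0.99) and BNC1 (0.02 ± 0.28, adjusted p = 0.98) gave changes near 0 by edgeR's quasi-likelihood test. With 1 sample left out the treatment term could not be kept, and then PRDM8 and BNC2 kept their direction in all 4 fits and their call in the fit without control replicate 2 alone, while PRDM12 lost its call in all 4 fits (-2.52 to -1.88). Mesenchymal markers moved the same way as BNC2, with 8 of 12 lower in replicate 1 neurons (median -2.14 against 0.01 over all genes). BNC2 kept its call when neurons with at least 3 of these markers were left out. The part of the markers in the remaining neurons was not tested.

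In progenitors, where 2.99% of 20260 genes were called, PRDM8 and BNC2 were again the members called, as 2 of 7 tested. Progenitor PRDM8 stood at 2.25 and 1.81 CPM in replicate 1 and 6.18 and 8.30 CPM in replicate 2, and BNC2 gave 4.34 and 3.75 CPM against 9.48 and 8.82 CPM. Neither overlapped. PRDM8 changed by -1.94 ± 0.34 (adjusted p = 0.00025 by edgeR's quasi-likelihood test) and BNC2 by -1.29 ± 0.28 (adjusted p = 0.0049). With DESeq2 neither was called (adjusted p = 0.052 and 0.24). PRDM8 lost the call without PP121 replicate 2 (-1.74, adjusted p = 0.15), and BNC2 kept it of the 4 samples left out in turn only without control replicate 2. PRDM16 changed by -0.14 ± 0.19 (adjusted p = 0.80) at 63.4 and 102 CPM in replicate 1 against 72.7 and 92.9 CPM, and PRDM13 by 0.50 (adjusted p = 0.29). In mesenchymal markers of progenitors 7 of 11 tested were lower in replicate 1 (median -1.998). PRDM8 and BNC2 kept their calls when progenitors with at least 3 of these markers were left out. The part of the markers in the remaining progenitors was again not tested.

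Mesenchymal nuclei, where 4.39% of 14387 genes were called, had BNC2 and PRDM6 called of 4 members tested. Mesenchymal BNC2 was 171 and 178 CPM in replicate 1 and 658 and 745 CPM in replicate 2, nearly alike in control and PP121. Its replicates did not overlap, but the share of all genes with that order was not computed, so nothing is read from it. The log2 fold change was -1.96 ± 0.29 (adjusted p = 1.4e-07 by edgeR's quasi-likelihood test), called in all 5 alternatives and without any 1 sample (-2.04 to -1.81). PRDM6 had 1 and 0 UMIs in replicate 1 against 32 and 134 in replicate 2, so no fold is given. It passed the filter on low counts only through replicate 2, so nothing is read from its call (adjusted p = 0.026 by edgeR's quasi-likelihood test). The call was lost without doublet candidates (adjusted p = 0.11 by the same test) and without control replicate 2. The replicate 1 sums held 40 and 33 nuclei. PRDM16 (adjusted p = 0.29, on 1 and 0 UMIs in replicate 1) and BNC1 (1.33 ± 0.86, adjusted p = 0.62) were not called. Cycling markers in mesenchymal nuclei stood at 19.6 and 16.8 CPM in replicate 1 and 133 and 224 CPM in replicate 2. Epithelial markers there stood at 210.2 and 63.9 CPM in replicate 1 and 48.9 and 23.6 CPM in replicate 2, with KRT8 and KRT19 called higher in replicate 1 of 5 tested (list median 1.96), and their part in the BNC2 difference was not tested.

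**Figure D4:**
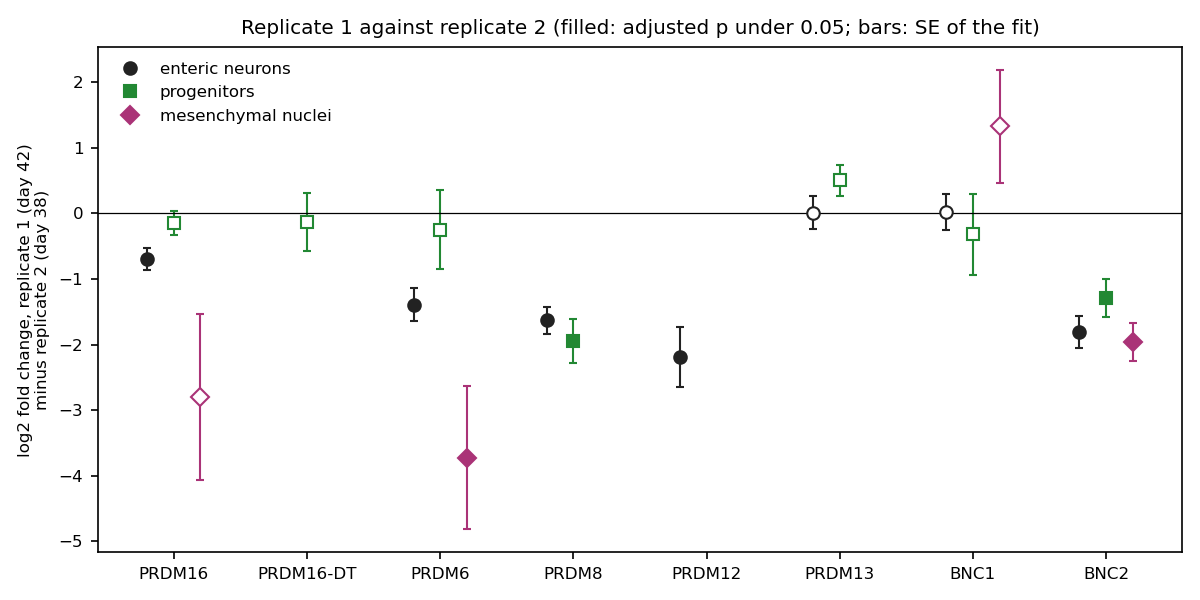
Log2 fold change of each member between replicate 1 (day 42) and replicate 2 (day 38), with treatment as a term, on the vertical axis, where bars are the SE of the fit and filled points have an adjusted p under 0.05. BNC2 lies below 0 in neurons (-1.81), progenitors (-1.29) and mesenchymal nuclei (-1.96), and PRDM8 in neurons (-1.63) and progenitors (-1.94).

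PP121 and control are set side by side as a description, since this contrast chose the members and holds 2 samples a group. In neurons the PP121 samples were above both controls for 3 of the 7 members that passed the filter on low counts, PRDM16, PRDM6 and BNC1, against 19.7% of all genes, and nothing is read from that count. Neuronal PRDM16 stood at 5.96 and 9.29 CPM in controls and 14.2 and 22.0 CPM with PP121, a log2 fold change of 1.295 ± 0.32 (SE). PRDM16 was also higher in progenitors (0.50 ± 0.20, at 63.4 and 72.7 against 102 and 92.9 CPM) and in the unknown class (1.53 ± 0.30). In NO neurons (0.88 ± 0.51) and in mesenchymal nuclei (0.62 ± 0.90) its groups overlapped. Across all annotated nuclei it stood at 30.7 and 34.9 against 60.1 and 62.8 CPM, with a log2 fold change of 0.92 ± 0.15. PRDM16-DT followed the same direction, at 0.615 and 0.724 against 1.71 and 3.34 CPM over all annotated nuclei (1.92 ± 0.46).

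PRDM6 gave the widest difference of the members in neurons, at 3.14 ± 0.60, and its groups did not overlap, with 1.11 and 1.98 CPM in controls and 6.71 and 19.2 CPM with PP121. Most of the PP121 UMIs lay in EN I, a label carried only by the PP121 tables, so no value without it can be set against the controls. In NO neurons PRDM6 differed by 3.79 ± 0.71, from 1.35 and 6.09 to 22.6 and 67.3 CPM. In progenitors PRDM6 differed by 1.79 ± 0.60, and members above in both PP121 samples there were 4 of 7 against 15.7% of all genes.

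BNC2 gave 2.48 and 6.13 CPM in control neurons and 3.51 and 15.2 CPM with PP121, groups that overlapped, and a log2 fold change of 1.16 ± 0.73 that became -0.24 without PP121 replicate 2. Within replicate numbers the PP121 sample was the higher one both times. In NO neurons BNC2 gave 2.15 and 3.05 against 7.76 and 48.8 CPM (3.36 ± 0.89), from 8, 6, 24 and 42 UMIs in 4 to 9 nuclei a sample. Members above in both PP121 samples were 2 of 4 in NO neurons, against 16.2% of all genes, and 4 of 8 over all annotated nuclei, against 17.6%. Mesenchymal BNC2 differed by 0.17 ± 0.73 and progenitor BNC2 by -0.16 ± 0.50. In these sums, fewer cells of a kind and less RNA per cell cannot be told apart, and over all annotated nuclei BNC2 (20.8, 106, 15.9 and 133 CPM) went with the share of mesenchymal nuclei.

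The other members differed less in neurons. PRDM8 (0.07 ± 0.65), PRDM12 (0.38 ± 0.93) and PRDM13 (0.13 ± 0.32) had overlapping groups, and BNC1 differed by 0.70 ± 0.28 at 2.90 and 3.16 against 5.17 and 4.34 CPM.

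**Figure D5:**
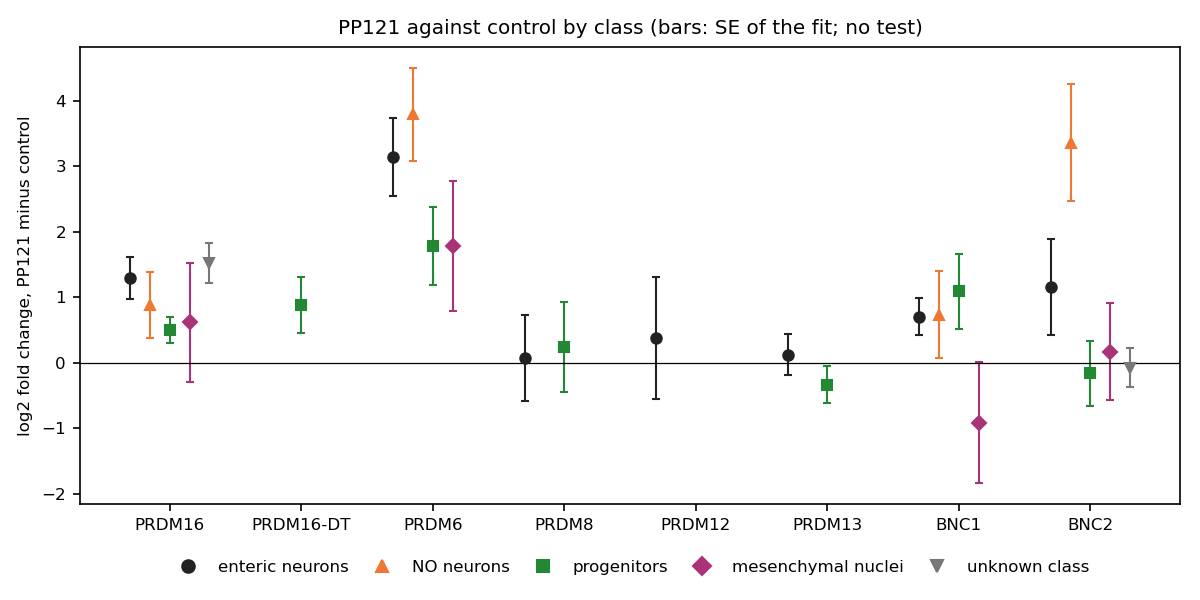
Log2 fold change of each member, PP121 minus control, on the vertical axis in 5 groups of nuclei, with bars for the SE of the fit and no test. PRDM16 lies above 0 in all 5 groups, by less than its SE in mesenchymal nuclei (0.62 ± 0.90). PRDM6 is highest in NO neurons (3.79) and neurons (3.14). Members without a point did not pass the filter on low counts in that group.

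Genes with levels most like those of a member were ranked by Pearson's r of log2(CPM + 1) over the 23 sums of a class and sample with at least 20 nuclei, among 14516 genes. These sums share libraries and classes, and the values are a description. PRDM16 was most like ILDR2 (r = 0.93), LMO3 (0.92), LRP4 (0.90), PTPRZ1, a receptor phosphatase of radial glia (0.89), and MGST1 (0.89). BNC2 was most like TRAF5 (0.93), ARHGAP10 (0.92), ARHGEF3 (0.92), ADAMTS15 (0.92) and GPC6 (0.91). PRDM6 gave lower values, led by MTUS2 (0.81), PAPPA (0.79), MACROD2 (0.78), ADAMTS19 (0.77) and SORCS2 (0.77), and PRDM8 was led by NNMT (0.81), FIGNL2 (0.80), SMARCAD1 (0.80), RALGDS (0.80) and COP1 (0.79).

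Among the other PRDM family genes, MECOM (PRDM3), the closest relative of PRDM16, was the one called most often by edgeR's quasi-likelihood test. It was higher in NO neurons (1.20 ± 0.14, adjusted p = 5.8e-05), lower in cholinergic neurons (-1.53 ± 0.14, adjusted p = 7.4e-06), and lower in replicate 1 neurons (-1.17), progenitors (-1.03) and mesenchymal nuclei (-4.13). Of 11 family genes tested (9 in mesenchymal nuclei), calls also included PRDM10, higher in cholinergic neurons (0.36), ZFPM2 lower in replicate 1 neurons (-0.73) and PRDM11 lower in cycling progenitors (-0.42). Family medians lay between -0.22 and 0.09 in the 6 comparisons, where the medians of all genes lay between -0.03 and 0.01.

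PRDM partner and corepressor genes were called lower or not at all. In NO neurons SMAD3 (-0.67), HDAC1 (-0.44) and CTBP2 (-0.30) of 9 tested were lower, and SMAD3 was the 1 called in cholinergic neurons (-0.62). BHLHE22, the partner of PRDM8, was lower in replicate 1 neurons (-2.94 ± 0.50, adjusted p = 0.00018 by edgeR's quasi-likelihood test) like PRDM8, with SMAD3 (-0.71), HDAC1 (-0.65) and CTBP2 (-0.30), 4 of 10 tested. SMAD3 alone was called in progenitors (-0.63), and none was called in mesenchymal nuclei (0 of 8) or by phase (0 of 9). The list's medians lay between -0.25 and -0.02.

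Enteric neuron diversification factors were called in each of the comparisons. In replicate 1 neurons 8 of 14 tested were lower, led by ISL1 (-3.34), CASZ1 (-1.95), ETV1 (-1.04) and EBF1 (-0.86), and in progenitors 3 of 13, CASZ1 (-1.44), MEIS2 (-0.61) and NPAS3 (-0.59). Cholinergic neurons had 5 of 12 lower, as ETV1 (-1.69), CASZ1 (-0.94), MEIS1 (-0.88) and EBF1 (-0.69). NO neurons had ONECUT2 (1.00) and MEIS1 (0.73) higher and CASZ1 (-0.98) lower of 13, mesenchymal nuclei ETV1 higher (1.55) and SOX6 lower (-2.002) of 10, and cycling progenitors 7 of 12 lower, led by SOX6 (-0.53), EBF1 (-0.44), ETV1 (-0.40) and NPAS3 (-0.35). The list's medians lay between -0.62 in mesenchymal nuclei and 0.10 in NO neurons.

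Somatosensory and dorsal spinal factors, the setting in which PRDM12 and PRDM13 are known, held both higher and lower calls. PAX2, a factor of inhibitory spinal neurons, was higher in cholinergic neurons (2.38 ± 0.15, adjusted p = 3.2e-07 by edgeR's quasi-likelihood test), whereas LMX1B (-2.52), POU4F1 (-2.18) and TLX3 (-2.17) were lower, of 7 tested. In NO neurons NEUROG2 (-2.40), PAX2 (-1.41) and LBX1 (-1.27) were lower, of 7. Replicate 1 neurons had PAX2 higher (0.90) and LMX1B lower (-1.57) of 8. NEUROG1 was also called lower there (adjusted p = 0.00018 by edgeR's quasi-likelihood test). With no UMI in replicate 1, NEUROG1 passed the filter on low counts only through replicate 2, so nothing is read from its call. Replicate 1 progenitors had PAX2 higher (1.00) of 5, and cycling progenitors had it lower (-0.59) of 5. Of 2 tested in mesenchymal nuclei none was called. The list's median was -1.22 in NO neurons and -1.10 in cholinergic neurons, and lay between -0.79 and 0.39 in the others.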

How the data were processed

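Nuclei of 4 samples were profiled by 10x single-nucleus RNA sequencing. The authors deposited whole UMI counts per gene and nucleus, the raw counts used here, with an annotation of class, neuron subtype, transmitter identity, cell cycle phase, day and a mitochondrial percent that was not used further. The submitters' processing notes name Cell Ranger, Seurat 4.0.4 and GRCh38, whereas the study's methods describe kallisto and bustools. Whether introns or strand entered the counting is not given in the sources used here. Nuclei that the authors marked as filtered were left out. Totals per sample ranged from 23348045 to 34123759 UMIs over annotated nuclei, and intervals and floors (3 counts) cover counting error only.

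Counts were summed per sample and group of nuclei and tested with edgeR 4.0.16 in R 4.3.3 (quasi-likelihood test, two-sided, TMM, filterByExpr, Benjamini-Hochberg over all genes tested, threshold 0.05) in 6 comparisons, with SE from the fold change and F. The sample was a block where both groups came from the same samples, and treatment was a term between replicates. PP121 against control was fitted without a block and not tested. The scripts were tested on simulated data. Same-numbered samples share a deposited day, and their deviations from the group means correlated at 0.42 in neurons, 0.28 in progenitors and 0.53 in all annotated nuclei. P-values measure only the spread between these samples of 1 cell line. The study's methods call merged samples of this kind biological replicates. No source used here says that they came from separate differentiations, so the spread may still be technical. Scrublet in scanpy 1.11.5 (Python 3.11.15) marked at most 0.065% of nuclei, so the top 5% by score were taken as doublet candidates in an alternative and kept otherwise. DESeq2 1.42.0, other filters, the block or term, each sample, neurons without a subtype, EN I, NOS1-defined neurons, nuclei with at least 3 mesenchymal markers and thinning to 2000 and 1000 UMIs were further alternatives.

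The genes named are all 8 members, the 5 genes most like PRDM16, PRDM6, PRDM8 and BNC2 (mean of at least 5 CPM), and up to 4 called genes with the largest change of each of 4 gene lists (other PRDM family, PRDM partners and corepressors, enteric neuron diversification factors, somatosensory and dorsal spinal factors). A result of the family list is not reported here. Other genes are markers given by their sums, NOS1 for the NO identity, and CHAT, SLC18A3 and SLC5A7 for the cholinergic one. The members and lists were chosen with earlier results of these data known. Gene positions came from GENCODE 29 and promoters from RefSeq.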

Additional observations from a re-analysis of the deposited data

Results flagged for a closer look

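Some values went opposite ways in the groups of samples that share a treatment or a replicate number, as every sample of one group moved one way and every sample of the other moved the other way. None of these differences was tested. They are differences of log2((CPM + 1)/(CPM + 1)), averaged over 2 samples a group. BNC2 in NO against other neurons averaged -0.56 in controls and 1.65 with PP121, a difference of -2.21 (control minus PP121). PRDM12 in cycling against G1 progenitors averaged -0.85 in controls and 0.70 with PP121, a difference of -1.55, and PRDM16-DT averaged -0.32 and 0.26, a difference of -0.58. BNC1 in cycling against G1 progenitors averaged -0.43 in replicate 1 and 0.53 in replicate 2, a difference of -0.97 (replicate 1 minus replicate 2), on 8, 5, 16 and 14 UMIs. PRDM12 rested on 6, 6, 8 and 40 UMIs and PRDM16-DT on 16, 15, 42 and 23, and BNC1 was too sparse to be tested there.

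The nuclei that the authors had filtered out (4248, 1816, 2400 and 2030 nuclei, with median UMIs of 666 to 822.5) were used in no comparison. In them PRDM16, PRDM16-DT and PRDM6 had both PP121 samples above both controls, while the groups overlapped for all other members. The share of all genes above in these nuclei was not computed, and this contrast chose the members, so nothing is read from it. PRDM16 stood at 23.1, 28.95, 53.3 and 63.3 CPM in the filtered nuclei, with a PP121 mean of 58.3 against 26.0 CPM in controls. PRDM16-DT had a PP121 mean of 2.93 against 0.568 CPM, and PRDM6 had 4.51 against 0.993 CPM, with PP121 replicate 1 (1.81 CPM) close to control replicate 1 (1.44 CPM).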

How the results depend on the processing

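Leaving out EN I or neurons without a subtype was added after seeing the data, and all other alternatives were planned. Of 19193 genes, 2393 were called in NO neurons, 685 without the sample block and 196 with NOS1-defined neurons, where PRDM6 (-1.46), PRDM13 (0.83), BNC1 (-0.22) and BNC2 (-0.65) turned sign. Cholinergic calls went from 2551 to 505 without the block. Calls between replicates went from 2015 in neurons to 466 with DESeq2 and 0 without the treatment term (1574 at an unadjusted p under 0.05 in edgeR), from 606 in progenitors to 164 and 0 (2248 unadjusted), and from 632 in mesenchymal nuclei to 208 with DESeq2, 393 with at least 10 UMIs in every sum, 312 without doublet candidates and 277 without the treatment term. Phase calls went from 3669 to 1998 with DESeq2 and 334 without the block. Without EN I, PRDM6 turned to -0.70 in cholinergic neurons and to -0.16 for PP121 in neurons, a value that its own construction fixes, as EN I is a label of the PP121 tables alone and holds most of their PRDM6. Near 0, BNC1 between replicates in neurons turned to -0.0028 without doublet candidates and -0.014 without neurons that have no subtype, PRDM13 there to -0.000193 without nuclei holding mesenchymal markers, -0.031 without neurons that have no subtype and -0.0085 without EN I, and PRDM16-DT by phase to 0.016 with no filter on low counts and 0.041 without the block. The causes were not tested.

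Leaving out 1 sample at a time gave 1224 to 2395 calls in NO neurons (1224 without PP121 replicate 1), 1233 to 2651 in cholinergic neurons (1663, 1526 and 1233 without control replicate 1, control replicate 2 and PP121 replicate 1), 2377 to 3459 by phase (2377 without PP121 replicate 1), and, between replicates, 2 to 271 in neurons, 2 to 1031 in progenitors and 262 to 786 in mesenchymal nuclei (262 without PP121 replicate 2), in fits that drop the treatment term. Between replicates in neurons, BNC1 ranged from -0.44 to 0.43, PRDM13 from -0.31 to 0.34, PRDM16 from -1.46 to 0.077 and PRDM6 from -3.31 to 0.93. In progenitors BNC1 ranged from -0.88 to 0.55, PRDM16 from -0.50 to 0.20, PRDM16-DT from -0.81 to 0.38 and PRDM6 from -1.85 to 0.61. By phase PRDM12 ranged from -0.39 to 0.48 and PRDM16-DT from -0.17 to 0.15, and PP121 against control in BNC2 of neurons from -0.24 (without PP121 replicate 2) to 1.96.

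With the replicate block, PP121 against control gave 1.29 for PRDM16, 2.99 for PRDM6 and 1.00 for BNC2 in neurons, and no direction of a member changed. Of the results other than counts of calls and main levels, 621 values stayed as reported, 50 lost and 7 gained the threshold, 37 moved and 28 turned sign. Shares of nuclei with a UMI depend on depth. Thinned to 2000 and 1000 UMIs, the mean share over samples went from 42.9% to 18.8% and 10.3% for PRDM16 in progenitor 2, from 5.09% to 1.86% and 0.998% for PRDM8 in neurons and from 66.5% to 41.8% and 28.6% for BNC2 in mesenchymal nuclei. PRDM12, PRDM16-DT and most PRDM6 values rest on few UMIs, and 40 and 33 replicate 1 nuclei limit the mesenchymal values.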
